A study of Mus musculus with 8 samples.

Results

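The 10 genes described here encode the contractile apparatus of smooth muscle and markers of pericytes, the cells that wrap small vessels. They were taken by symbol from the 22520 genes of the deposited RNA sequencing table, and all 10 were found (Acta2, Tagln, Cnn1, Myh11, Myl9, Tpm1, Tpm2, Des, Rgs5 and Cspg4). The table held 4 libraries from LRP1 KO mice and 4 from wild-type (WT) littermates, all C57BL/6 and at postnatal day 14. The labels call the material microvesicular cells, mixed from heart, liver and lung, which is read here as microvascular cells after the study's methods. By those methods WT mice were LRP1 f/f; Cdh5-CreER-/- and LRP1 KO mice were LRP1 f/f; Cdh5-CreER+/-, so both groups carried the floxed Lrp1 alleles and the inducible Cre was present in LRP1 KO alone. The promoter of Cdh5, the gene of vascular endothelial cadherin, is used to direct Cre to endothelial cells. The methods also describe primary endothelial cells (ECs) selected with beads against PECAM-1. The study treats liver ECs apart from heart and lung ECs, and the labels do not say whether the libraries differ in this way. Whether each library came from 1 animal or from a pool is not given in the sources used here, so p-values measure the spread between libraries only.

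In smooth muscle, thin filaments of alpha-smooth muscle actin (Acta2) slide along thick filaments of smooth muscle myosin, made of a heavy chain (Myh11) and light chains such as Myl9. Calponin (Cnn1), transgelin (Tagln) and the tropomyosins (Tpm1, Tpm2) bind the thin filament, and desmin (Des) forms the intermediate filaments that anchor it. Serum response factor (SRF), with its cofactors of the myocardin family, switches on many of these genes by binding a short element called the CArG box. Pericytes carry some of the same proteins and are often recognized by Rgs5, a regulator of G-protein signaling, and Cspg4, the proteoglycan NG2. Activated fibroblasts and mesothelial cells can also make Acta2 and Tagln, so these genes alone do not identify a cell type.

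Lrp1, the deleted gene, was read first as a check of the labels. It ranged from 103 to 140 FPKM in WT and from 2.79 to 7.72 FPKM in LRP1 KO, without overlap, the LRP1 KO mean being 3.99% of the WT mean (FPKM counts fragments per kilobase of transcript, corrected for how many fragments a library gave). The values had been quantile normalized, so the depth of the libraries is unknown. Their sum was between 503571 and 504112 FPKM in every library. The labelled cell type was then compared with marker lists. The 16 endothelial markers summed to between 175 and 191 FPKM in WT, and Pecam1 contributed 6.80 to 8.76 FPKM of this. The 14 fibroblast markers reached sums of 3352 to 4797 FPKM in the same WT libraries, with Col1a1 at 395 to 565 FPKM. The 6 mesothelial markers reached 1709 to 1942 FPKM, mostly from Msln (mesothelin) at 1177 ± 85.6 FPKM (SD, n = 4). Endothelial markers were present but low beside those of fibroblasts and mesothelial cells. Lrp1 was thus nearly lost in libraries where fibroblast and mesothelial markers exceeded those of the cells that the Cdh5 promoter targets, and these bulk values do not show which cells had lost it. In LRP1 KO the endothelial sum was 626, 398, 464 and 182 FPKM for libraries 1 to 4, so library 4 stood at the WT level. Library 4 also held the most Lrp1 within LRP1 KO, 7.72 FPKM against 2.79 to 5.20 FPKM in libraries 1 to 3. Macrophage markers summed to between 89.8 and 114 FPKM in WT, against 238 to 574 FPKM in LRP1 KO. In such mixtures fewer cells of a type and less RNA per cell cannot be told apart.

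**Figure D1:**
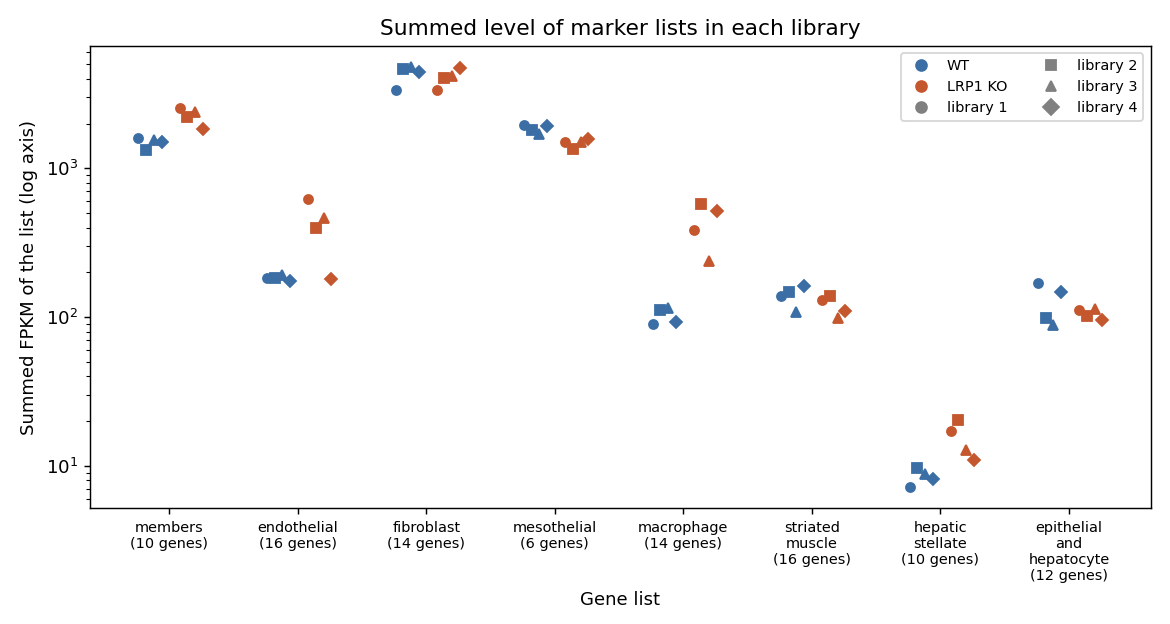
Summed FPKM (log axis) of the 10 contractile and pericyte genes and of 7 marker lists, with 1 point per library, WT in blue and LRP1 KO in red, and the point shape giving the library number. The endothelial sum of LRP1 KO library 4 (182 FPKM) sits among the WT libraries, and the fibroblast and mesothelial sums exceed the endothelial sum in every library.

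Most of the contractile genes were abundant, and 6 of them rose in LRP1 KO. Cnn1 rose most, from 3.27 ± 0.490 to 8.83 ± 1.22 FPKM (SD, n = 4 per group here and below). Acta2 went from 360.4 ± 39.0 to 711 ± 175 FPKM and Tagln from 298 ± 46.6 to 549 ± 93.4 FPKM. Des, Myl9 and Tpm1 rose by smaller amounts, to 143%, 132% and 118% of the WT mean. Myh11, Tpm2 and Cspg4 did not pass the test, and Rgs5 was below the filter on low values that the test across genes required. Of the 9 members tested, 6 had an adjusted p-value under 0.05 and were higher in LRP1 KO, and 0 were lower (limma). Of all 11389 tested genes 6.27% were called higher and 7.31% lower, or 13.6% in either direction. At an unadjusted p under 0.05, 8 members were higher and 0 lower, where 15.5% of all tested genes were higher and 18.2% lower, or 33.7% in either direction. All 9 tested members had an estimate above 0, with a median of 0.51 on the log2(FPKM + 1) scale. Over all tested genes the median was -0.01 and 48.1% had an estimate above 0. Groups did not overlap in 6 of the 10 members, each with LRP1 KO the higher. The same held for 8.84% of all tested genes with LRP1 KO the higher and for 19.6% in either direction. With the added limit of a 2-fold change, Cnn1 remained as 1 member, where 1.12% of all tested genes were called higher. Without LRP1 KO library 4 there were 7 called members, Myh11 being the addition, in a fit that called 12.3% of all tested genes higher. There were 4 in each of the fits without WT library 2 or LRP1 KO libraries 1, 2 or 3, which called 1.97% to 2.46% of all tested genes higher. In either direction the fit without LRP1 KO library 4 called 26.2% of all tested genes and the other 7 called 3.83% to 8.74%, a background that holds for the counts of other lists below too.

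**Figure D2:**
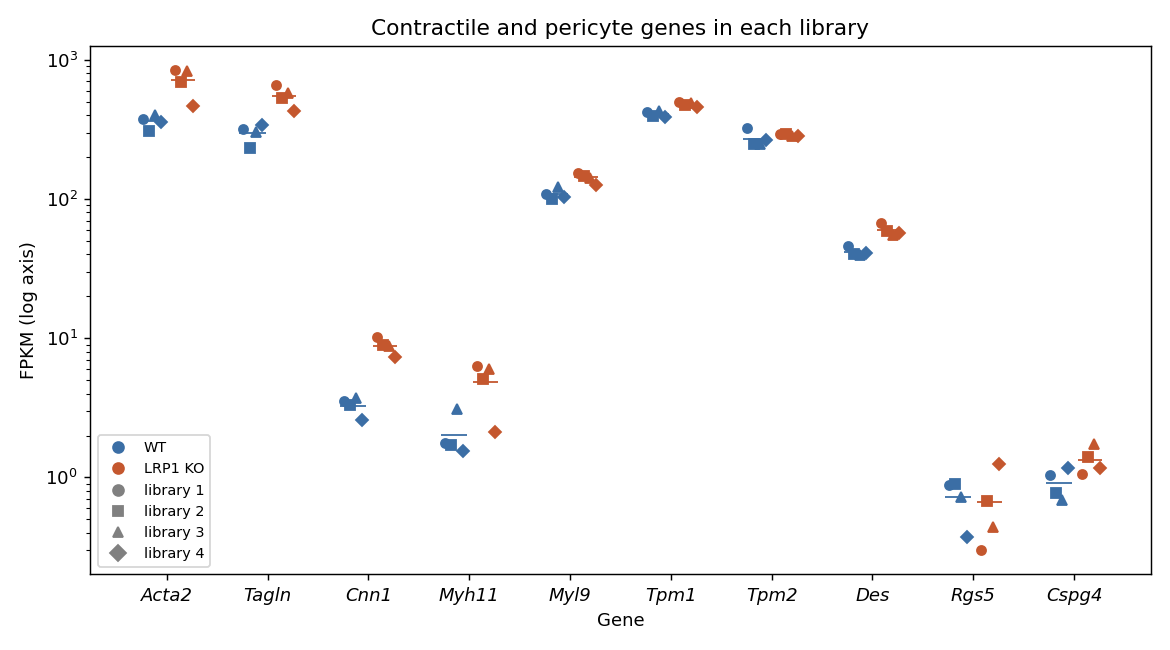
FPKM (log axis) of each of the 10 genes in every library, WT in blue and LRP1 KO in red, with the point shape giving the library number and a line at each group mean (n = 4). In Acta2, Tagln, Cnn1, Myl9, Tpm1 and Des the LRP1 KO points all lie above the WT points, while the groups overlap in Myh11, Tpm2, Rgs5 and Cspg4.

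Acta2 (ENSMUSG00000035783, chromosome 19, minus strand, 34241090 to 34255590 in GRCm38, like all positions here) encodes the actin of smooth muscle thin filaments. The WT libraries held 373, 309, 402 and 357 FPKM, against 844, 695, 836 and 469 FPKM for LRP1 KO in library order. The groups did not overlap, and LRP1 KO library 4 was nearest to WT at 1.30 times the WT mean. Acta2 rose by 0.95 (SE 0.18, limma adjusted p 0.0128), or to 1.97 times the WT mean. Without LRP1 KO library 4 the rise was 1.13. LRP1 KO libraries varied more, with an SD of 24.6% of the mean against 10.8% in WT.

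Tagln (ENSMUSG00000032085, chromosome 9, minus strand, 45929619 to 45936058) encodes the actin-bundling protein transgelin. WT libraries held 316, 232, 303 and 341 FPKM, against 654, 535, 576 and 429 FPKM for LRP1 KO. The groups were again separate, and library 4 was the lowest of LRP1 KO. The rise was 0.88 (SE 0.15, limma adjusted p 0.00847). An antisense gene, Gm48529, covers 62.4% of the exonic bases of Tagln on the other strand. Whether the libraries kept the strand is not given in the sources used here, so reads of the overlapping part cannot be assigned to one gene or the other.

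Cnn1 (ENSMUSG00000001349, chromosome 9, plus strand, 22099216 to 22109630) encodes basic calponin, which restrains the myosin motor on actin. WT libraries held 3.51, 3.29, 3.70 and 2.58 FPKM, against 10.3, 8.99, 8.81 and 7.28 FPKM for LRP1 KO. The lowest LRP1 KO library was 1.97 times the highest WT library, the widest gap among the 10 genes. Cnn1 rose by 1.20 (SE 0.12, limma adjusted p 0.000628) and ranked 104 among 11389 genes by the size of its rise. In LRP1 KO library 4 it stood at 2.23 times the WT mean, against 2.86 times for the mean of the other 3.

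Myh11 (ENSMUSG00000018830, chromosome 16, minus strand, 14194535 to 14291372) encodes the smooth muscle myosin heavy chain, a marker largely restricted to smooth muscle. WT libraries held 1.77, 1.71, 3.10 and 1.55 FPKM, against 6.31, 5.07, 6.00 and 2.11 FPKM for LRP1 KO. LRP1 KO library 4 lay below WT library 3, while the other 3 LRP1 KO libraries exceeded all of WT. The estimate of 0.91 (SE 0.27) did not pass (limma adjusted p 0.0535), and its 95% interval ran from 0.30 to 1.51, so a difference of the size estimated for Acta2 lies within it. Without LRP1 KO library 4 the estimate was 1.19 and passed (limma adjusted p 0.00178, the lowest of the alternatives, of which the highest was 0.144). That was 1 of the 8 leave-one-out fits. Of the other alternatives it passed in 2, library weights (limma adjusted p 0.00769) and a replicate block (limma adjusted p 0.0399).

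Myl9 (ENSMUSG00000067818, chromosome 2, plus strand, 156775420 to 156781658) encodes a regulatory light chain of myosin. WT libraries held 108, 99.9, 121 and 103 FPKM, against 154, 147, 142 and 126 FPKM for LRP1 KO. The groups lay close together but did not overlap, the lowest LRP1 KO library being 1.04 times the highest WT library. Its rise of 0.40 (SE 0.08, limma adjusted p 0.0162) fell short in 4 of the 8 leave-one-out fits, those omitting WT library 2 or LRP1 KO libraries 1, 2 or 3 (limma adjusted p from 0.00339 to 0.0583 across alternatives).

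Tpm1 (ENSMUSG00000032366, chromosome 9, minus strand, 67022590 to 67049406) and Tpm2 (ENSMUSG00000028464, chromosome 4, minus strand, 43514711 to 43523765) encode tropomyosins, coiled-coil proteins that lie along the actin filament. Tpm1 was the most abundant member in WT, where libraries held 419, 392, 426 and 390 FPKM, against 494, 471, 488 and 460 FPKM for LRP1 KO. This small rise of 0.23 (SE 0.05, limma adjusted p 0.0260) was lost in 5 of the 8 leave-one-out fits, those omitting WT libraries 2 or 4 or LRP1 KO libraries 1, 2 or 3 (limma adjusted p from 0.00718 to 0.0845 across alternatives). For Tpm2 the WT libraries held 323, 249, 248 and 266 FPKM, against 291, 291, 283 and 283 FPKM for LRP1 KO. WT library 1 exceeded all LRP1 KO libraries, and the other 3 WT libraries lay below them. The Tpm2 estimate of 0.09 (SE 0.08, limma adjusted p 0.480) had a 95% interval of -0.10 to 0.28, which leaves out differences as large as those estimated for Acta2, Tagln or Cnn1. It was 0.17 without WT library 1 (limma adjusted p 0.0685), 0.05 without WT library 2 (adjusted p 0.752) and 0.05 without WT library 3 (adjusted p 0.727). Values per gene do not separate the muscle and non-muscle splice forms that both tropomyosin genes make.

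Des (ENSMUSG00000026208, chromosome 1, plus strand, 75360329 to 75368579) encodes desmin, the muscle intermediate filament protein that in rodents is also made by pericytes and hepatic stellate cells. WT libraries held 45.9, 40.3, 39.3 and 41.0 FPKM, against 67.2, 59.2, 55.5 and 56.9 FPKM for LRP1 KO. The lowest LRP1 KO library was 1.21 times the highest WT library, and here that lowest one was library 3. Des rose by 0.51 (SE 0.07, limma adjusted p 0.00490) and passed in all 8 fits that left out 1 library, as did Acta2, Tagln and Cnn1.

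Rgs5 (ENSMUSG00000026678, chromosome 1, plus strand, 169655501 to 169695813) and Cspg4 (ENSMUSG00000032911, chromosome 9, plus strand, 56865033 to 56899870) are the pericyte markers and were the lowest of the 10. Rgs5 was listed at 0.884, 0.893, 0.727 and 0.376 FPKM for WT, against 0.300, 0.677, 0.442 and 1.26 FPKM for LRP1 KO. LRP1 KO library 4 held the highest value and library 1 the lowest, with WT between them. The difference of -0.06 on the log2(FPKM + 1) scale was within the spread (exact two-sided permutation test, p = 0.771, where 0.0286 is the smallest possible), and was -0.19 with a pseudocount of 0.1. Cspg4 stood at 1.04, 0.778, 0.686 and 1.16 FPKM for WT, against 1.06, 1.40, 1.73 and 1.16 FPKM for LRP1 KO. The groups overlapped, and its estimate of 0.29 (SE 0.12) did not pass (limma adjusted p 0.132), with a 95% interval of 0.01 to 0.56. At so low a level the size depends on the pseudocount, and with one of 0.1 the Cspg4 estimate was 0.50 (limma adjusted p 0.131).

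**Figure D3:**
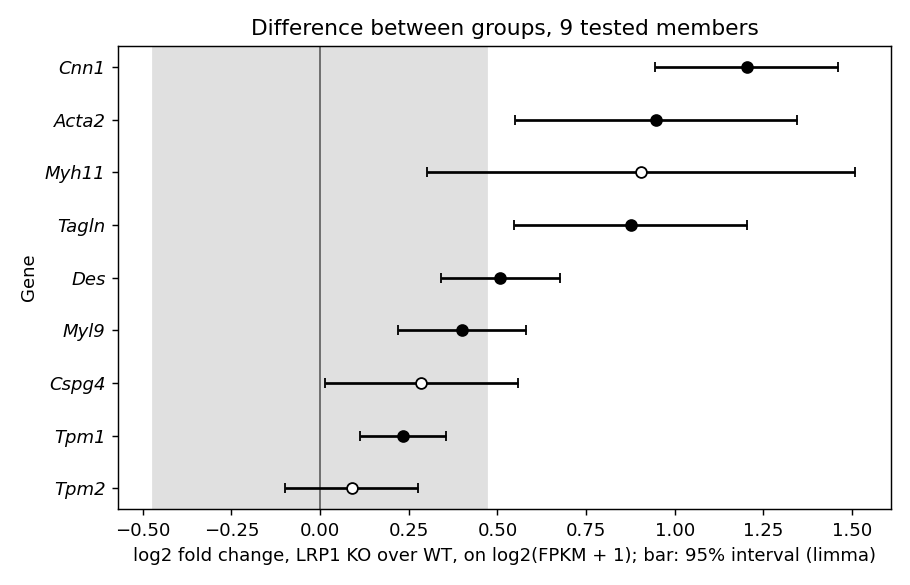
Estimated log2 fold change (LRP1 KO over WT, on the log2(FPKM + 1) scale) of the 9 tested members with its 95% interval from limma (bars), filled where the adjusted p-value was under 0.05. The grey band spans the 5th to the 95th percentile of all 11389 tested genes (-0.47 to 0.47), and the estimates of Cnn1, Acta2, Myh11, Tagln and Des lie to its right.

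Promoter sequences were read because 6 contractile members rose and SRF is the factor best known to bind genes of this kind. A RefSeq table (GRCm38.p6) held 8 of the members, and the promoters of Tagln and Myh11 were not analysed here. CArG boxes were sought in the 250 bases before each RefSeq start. A strict box is CC, then 6 bases of A or T, then GG, and a relaxed box allows 1 G or C among these 6 bases. Both patterns read the same on either strand, and a strict box is also a relaxed one. Among all 32851 promoters of this length, 1.47% held a strict box and 8.59% a relaxed one. Of the 8 members, 1 held a strict box (Myl9) and 2 a relaxed one (Acta2 and Myl9). The sequences that follow are shown since Acta2 and Myl9 hold the boxes and Cnn1, with the largest rise, held none in this window. Those of Myl9 and Cnn1 are the parts of the window that lie outside annotated exons. Most of the Acta2 window (217 of 250 bases) lies in an exon of GENCODE M21, a 5′ UTR, so each of its boxes is given with 10 bases on either side. Capitals mark relaxed boxes, and each sequence runs 5′ to 3′ on the strand of the gene.
Acta2, chr19:34255438-34255467, minus strand: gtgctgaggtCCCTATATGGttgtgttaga
Acta2, chr19:34255388-34255417, minus strand: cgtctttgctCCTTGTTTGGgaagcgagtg
Myl9, chr2:156775214-156775419, plus strand: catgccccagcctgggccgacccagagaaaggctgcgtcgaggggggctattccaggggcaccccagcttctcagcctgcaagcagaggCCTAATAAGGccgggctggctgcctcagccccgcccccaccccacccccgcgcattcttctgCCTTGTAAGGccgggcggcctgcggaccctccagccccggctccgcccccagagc
Cnn1, chr9:22099003-22099215, plus strand: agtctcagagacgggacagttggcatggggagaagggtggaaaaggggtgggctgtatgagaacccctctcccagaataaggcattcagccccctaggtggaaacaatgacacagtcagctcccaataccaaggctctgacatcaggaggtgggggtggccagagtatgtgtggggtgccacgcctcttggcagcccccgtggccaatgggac
In Acta2 the boxes CCCTATATGG and CCTTGTTTGG begin 84 and 34 bases before the RefSeq start. In Myl9 the strict box CCTAATAAGG begins 161 bases and the relaxed box CCTTGTAAGG 99 bases before it. A match says nothing of binding in these cells, and its absence says only that these letters are not in the window.

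The order of the members by level, which FPKM allows since it is per length, differed between the groups at the top. In WT it ran Tpm1, Acta2, Tagln, Tpm2, Myl9, Des, Cnn1, Myh11, Cspg4, Rgs5. The ranges of Tpm1, Acta2, Tagln and Tpm2 overlapped between neighbours, as did those of Cnn1 and Myh11 and of Cspg4 and Rgs5. In LRP1 KO, Acta2 came first and Tagln second, ahead of Tpm1, and the rest kept their places. There the ranges overlapped between Acta2 and Tagln, Tagln and Tpm1, and Cspg4 and Rgs5. Acta2 was below Tpm1 in 4 of 4 WT libraries and above it in 4 of 4 LRP1 KO libraries. The ratio of Acta2 to Tpm1 was 0.788 to 0.944 in WT and 1.02 to 1.71 in LRP1 KO (exact two-sided permutation test, p = 0.0286, the smallest possible, and 0.0714 after adjustment over the 5 ratios of members examined). The ratio of Tagln to Acta2 was 0.827 ± 0.0968 in WT and 0.787 ± 0.0943 in LRP1 KO (exact permutation p = 0.571). The other 3 ratios had adjusted exact permutation p-values of 0.0714 for Acta2 to Tpm2, 0.0952 for Cnn1 to Acta2 and 0.536 for Myh11 to Acta2.

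Contractile proteins have non-muscle relatives, so the members were also expressed as a share of their gene family in the same library. Any single scaling factor of a library cancels out of a share, but quantile normalization is not such a factor and does not cancel. Acta2 made up 14.7%, 12.9%, 13.8% and 12.2% of the summed FPKM of 5 actin genes in WT libraries, against 23.5%, 21.2%, 23.2% and 16.1% for LRP1 KO. Actb and Actg1, the cytoplasmic actins of all cells, did not pass the test. Actb was 1190.0 ± 157 FPKM in WT against 1275 ± 67.8 FPKM in LRP1 KO (limma adjusted p 0.454), and Actg1 was 1131 ± 86.4 against 1342 ± 99.1 FPKM (limma adjusted p 0.0661). Tagln went from 56.3% ± 2.94 to 67.4% ± 3.44 of Tagln and Tagln2 together, and Cnn1 from 1.36% ± 0.242 to 2.91% ± 0.190 of the 3 calponin genes. In the Acta2, Tagln and Cnn1 families the groups did not overlap, and the exact two-sided permutation p of 0.0286 is the smallest possible, or 0.0667 after adjustment over the 7 shares. The share of Myh11 among 4 myosin heavy chains was 1.40% ± 0.491 in WT and 3.12% ± 1.14 in LRP1 KO (exact permutation p = 0.0571, adjusted 0.10). Myl9 took 10.7% ± 0.846 of the sum with Myl12a and Myl12b in WT and 12.2% ± 0.770 in LRP1 KO (exact permutation p = 0.0857, adjusted 0.120). Among the 4 tropomyosins, Tpm1 made up 30.6% ± 1.31 in WT and 31.6% ± 0.352 in LRP1 KO (exact permutation p = 0.257, adjusted 0.257). Tpm2 made up 20.4% ± 1.93 and 19.0% ± 0.712 (exact permutation p = 0.200, adjusted 0.233). No share passed after adjustment. With 7 shares and a smallest possible p of 0.0286, complete separation in 3 families could not have passed 0.05.

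**Figure D4:**
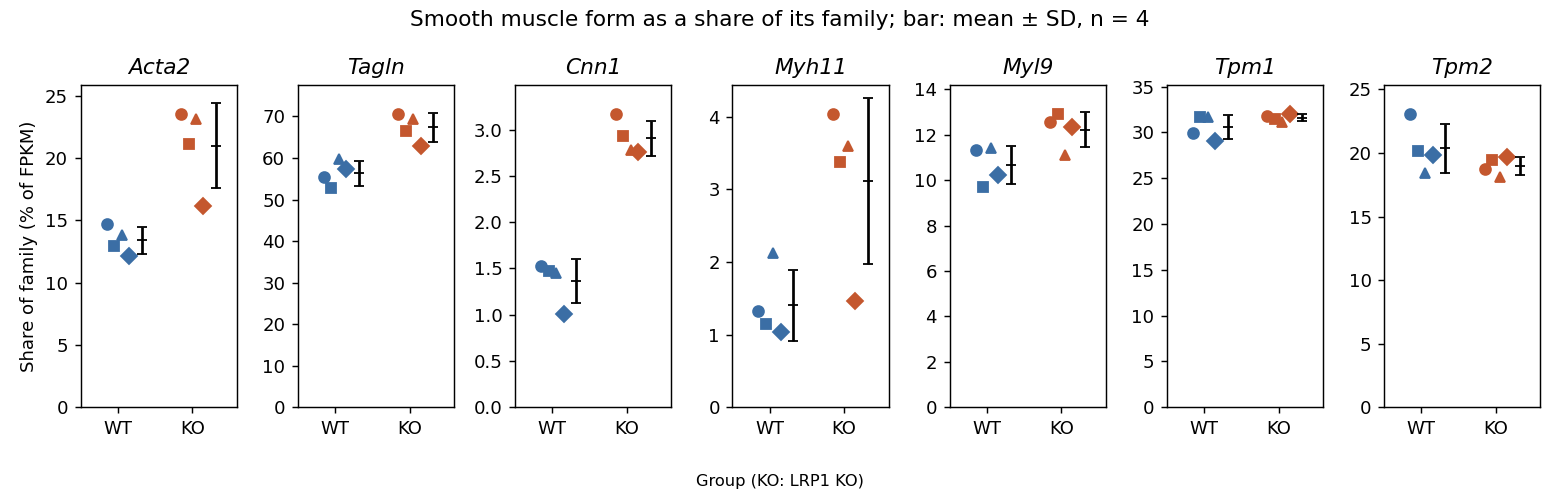
Share (percent of summed FPKM) of 7 contractile members within their gene family in each library, by group, with axes from 0, 1 point per library and a bar at the mean ± SD (n = 4). Acta2, Tagln and Cnn1 take a larger share in all 4 LRP1 KO libraries than in any WT library, while the tropomyosin shares overlap.

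Other genes of the contractile apparatus moved in both directions. Of 28 listed partners 27 were tested, of which 6 rose and 3 fell, and the median estimate was 0.25. Lmod1, a leiomodin that starts thin filaments in smooth muscle, rose from 4.02 ± 0.481 to 7.31 ± 1.20 FPKM, or by 0.72 (SE 0.12, limma adjusted p 0.00831). Synpo, the actin-associated synaptopodin, rose by 0.59 (limma adjusted p 0.00281) and the crosslinker Actn1 by 0.85 (limma adjusted p 0.0218). Mylk, whose product myosin light chain kinase phosphorylates the regulatory light chain to start contraction, moved the other way. WT libraries held 38.4, 47.6, 48.6 and 47.3 FPKM of it, against 16.1, 17.1, 16.4 and 32.8 FPKM for LRP1 KO. The groups did not overlap, library 4 was nearest to WT, and Mylk fell by 1.16 (SE 0.21, limma adjusted p 0.0102). Mustn1, a small nuclear protein of musculoskeletal tissue, fell by 1.06 (limma adjusted p 0.00482), and smoothelin (Smtn), an actin-associated protein of contractile smooth muscle, fell by 0.27 (limma adjusted p 0.0297). Of the 9 calls, those of Lmod1, Synpo, Mylk, Mustn1 and Pdlim7, 5 in number, held in all 8 fits that left out 1 library. Actn1 passed in 3 of these fits, those without LRP1 KO library 4, WT library 3 or WT library 4, and Smtn in 2, those without LRP1 KO library 4 or WT library 3. The list gave 14 calls without LRP1 KO library 4 and 5 to 8 without any other library, with 5 in each fit without WT library 2 or LRP1 KO libraries 1, 2 or 3.

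**Figure D5:**
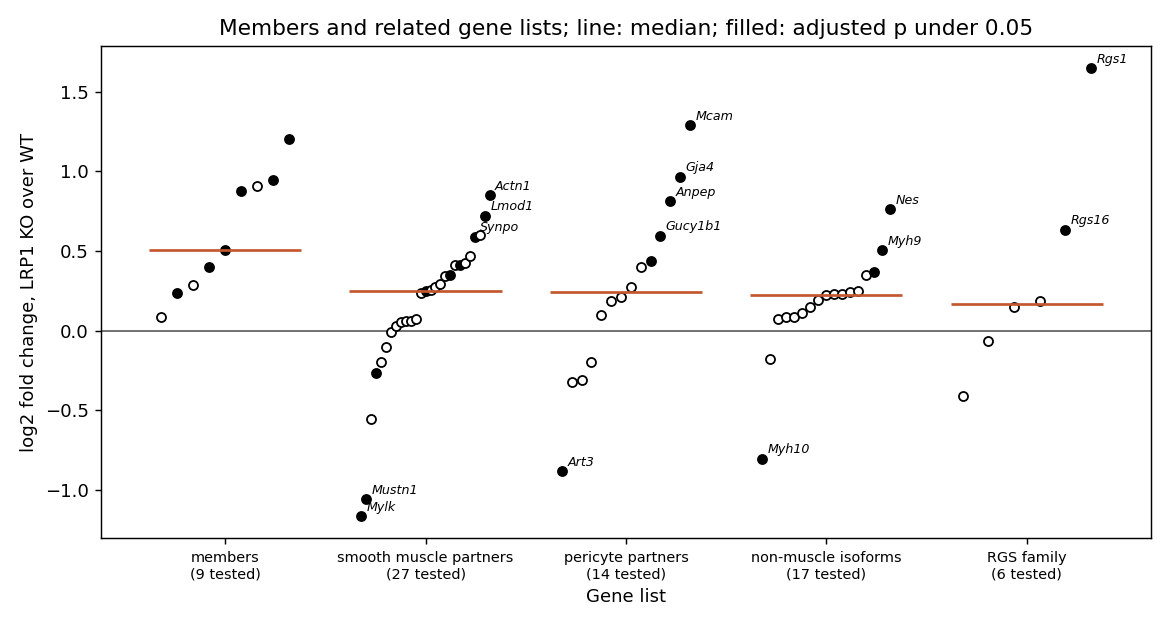
Estimated log2 fold change (LRP1 KO over WT, on the log2(FPKM + 1) scale) of every tested gene in the members and 4 related lists, with 1 point per gene, filled where the limma adjusted p-value was under 0.05, named where filled and beyond 0.5 outside the members, and a red line at each list's median. The medians run from 0.17 for the RGS family to 0.51 for the members, and Mylk, Mustn1, Art3 and Myh10 are the filled points farthest below 0.

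Srf and Myocd, which encode the factor that binds the CArG box and its muscle cofactor myocardin, were read as well. Srf was 11.9 ± 0.323 FPKM in WT against 12.9 ± 1.26 FPKM in LRP1 KO (limma adjusted p 0.345), with a 95% interval of -0.06 to 0.27. Myocd was below the filter on low values. It was listed at 0.0726, 0.110, 0.0953 and 0.146 FPKM for WT, against 0.989, 0.593, 0.761 and 0.263 FPKM for LRP1 KO. Its groups did not overlap, and library 4 was the lowest of LRP1 KO (exact two-sided permutation p = 0.0286, the smallest possible).

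Pericyte genes were mixed. Of 22 listed, 14 were tested, of which 5 rose and 1 fell, with a median of 0.24. Pdgfrb, the receptor by which pericytes are recruited to endothelium, was abundant, at 56.2, 79.4, 80.9 and 70.1 FPKM for WT against 40.7, 61.9, 59.7 and 69.8 FPKM for LRP1 KO. The groups overlapped, and the estimate of -0.31 (SE 0.17) did not pass (limma adjusted p 0.221), with a 95% interval of -0.69 to 0.07. Without 1 library the Pdgfrb estimate ranged from -0.42, without WT library 1, to -0.15, without LRP1 KO library 1, and passed in none of the 8 fits (limma adjusted p from 0.106 to 0.476). Notch3, a Notch receptor of mural cells, was 2.30 ± 0.372 FPKM in WT against 3.40 ± 0.858 FPKM in LRP1 KO (limma adjusted p 0.0936). Mcam (CD146) rose from 4.96 ± 0.611 to 14.4 ± 5.13 FPKM, or by 1.29 (limma adjusted p 0.0150), Gja4 (connexin 37) rose by 0.97 (limma adjusted p 0.0279) and Anpep (aminopeptidase N) by 0.81 (limma adjusted p 0.00954). Mcam and Gja4 are also made by endothelial cells, and Anpep by myeloid cells and fibroblasts. Art3, an ADP-ribosyltransferase homologue, fell by 0.88 (limma adjusted p 0.0247). The pericyte genes Kcnj8, Abcc9, Vtn and Higd1b had means of 0.294 FPKM or less in both groups. Without LRP1 KO library 4 the list gave 9 calls, without WT library 2 or LRP1 KO library 2 it gave 1, and without any other library 2 or 3. Anpep alone passed in all 8 fits, Mcam in the 6 that kept WT library 2 and LRP1 KO library 2, Gja4 in the 2 without LRP1 KO library 4 or WT library 1, and Art3 in the 1 without LRP1 KO library 4.

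Among 17 tested non-muscle filament genes, 3 rose and 1 fell, with a median of 0.22. The rises were those of Myh9, a non-muscle myosin heavy chain, by 0.50 (limma adjusted p 0.0203), Nes, the intermediate filament nestin, by 0.76 (limma adjusted p 0.0303) and the calponin Cnn2 by 0.37 (limma adjusted p 0.0330). Myh10, the other main non-muscle heavy chain, fell from 63.4 ± 9.24 to 36.0 ± 6.84 FPKM, a difference of -0.80 (SE 0.13, limma adjusted p 0.00839), without overlap of the groups. The fall of Myh10 held in all 8 fits that left out 1 library. The rise of Myh9 held in 3 (without LRP1 KO library 4, WT library 3 or WT library 4), that of Cnn2 in 2 (without LRP1 KO library 4 or WT library 4) and that of Nes in 1 (without LRP1 KO library 4). The list gave 11 calls without LRP1 KO library 4 and 1 to 3 without any other, with 3 without WT library 4, 2 without WT library 3 and 1 in the rest.

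Other cell types that make these proteins were examined by their markers. Of 16 striated muscle genes 5 were tested and 0 passed (limma adjusted p from 0.0631 to 0.518). Estimates were above 0 for 4 of the 5, with a median of 0.40. At an unadjusted p under 0.05, 3 were higher and 1 lower. Of all tested genes 15.5% were higher and 18.2% lower at that threshold, or 33.7% in either direction. The list gave 2 calls without LRP1 KO library 4, 1 without WT library 3 and 0 without any other. Actc1, the cardiac actin, was listed at 1.97 FPKM or less, and Myh7, Ryr2 and Ttn had means of 0.0680 FPKM or less in both groups. Tnnt2, cardiac troponin T, was more abundant, with 124 ± 23.2 FPKM in WT against 96.1 ± 11.3 FPKM in LRP1 KO (limma adjusted p 0.107). Its estimate of -0.35 was the 1 below 0 among the 5 tested. Among 14 fibroblast genes Postn, a matricellular protein, rose by 0.98 (limma adjusted p 0.00663), the 1 rise. The 3 falls were those of Dpt by 2.01, Pdgfra by 0.96 and Thy1 by 0.52 (limma adjusted p 0.0330, 0.0367 and 0.0297). Postn passed in all 8 fits that left out 1 library, Dpt and Pdgfra in the 1 without LRP1 KO library 4 and Thy1 in the 2 without LRP1 KO library 4 or WT library 2. The fibroblast list thus gave 8 calls without LRP1 KO library 4, 2 without WT library 2 and 1 without any other. Col1a1 was 499 ± 72.5 FPKM in WT against 470.0 ± 82.2 FPKM in LRP1 KO (limma adjusted p 0.695). The fibroblast sum overlapped between groups, with 3349 to 4701 FPKM in LRP1 KO. Among 6 mesothelial genes 2 fell, Upk3b by 0.55 and Msln by 0.26 (limma adjusted p 0.0109 and 0.0471), and the sum was 1352 to 1571 FPKM in LRP1 KO, below all WT libraries. Without LRP1 KO library 4 the mesothelial list gave 4 calls, without WT library 3 it gave 2, and without any other it gave 1, with Msln passing in the first of these fits only.
The endothelial sum exceeded WT in LRP1 KO libraries 1 to 3 and not in library 4, where Acta2, Tagln, Cnn1, Myl9 and Tpm1 were also lowest within LRP1 KO. Of 15 tested endothelial genes 1 rose (Eng, by 0.94, limma adjusted p 0.0279). All 15 had an estimate above 0, with a median of 0.70 where that of the 9 tested members was 0.51, and 10 were higher at an unadjusted p under 0.05. At an adjusted p under 0.05 there were 13 called without LRP1 KO library 4 (limma), in the fit that called 12.3% of all tested genes higher, and 0 without any other library (1.97% to 4.14% of all tested genes). Pecam1 was 36.3, 18.5, 26.2 and 6.72 FPKM and Cdh5 47.3, 21.5, 33.9 and 8.56 FPKM for LRP1 KO in library order (limma adjusted p 0.0814 and 0.0766). Of 11 tested macrophage genes 9 rose, led by C1qb, Ctss and Lyz2 at 2.75, 2.73 and 2.60 (limma adjusted p 0.00237, 0.000449 and 0.00205). Among the 11, Adgre1 and Mrc1 passed the filter on low values only through their LRP1 KO values, so their direction was set by the filter. Cd14 had an estimate of -0.47 and did not pass (limma adjusted p 0.136), but was called lower without LRP1 KO library 4 (limma adjusted p 0.0294). The list gave 6 to 8 calls without 1 library, and Csf1r (0.37, limma adjusted p 0.0460) passed in 1 of the 8 fits. The summed macrophage markers stood at 383, 574, 238 and 520.1 FPKM for LRP1 KO in library order, so library 4 was not low here. The part of these cell types in the contractile differences was not tested.

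The genes with the most similar profiles over the 8 libraries were found by the root mean square difference of centred log2(FPKM + 1) values among 11330 other genes. For Acta2 these were Scel, Fxyd5 and Lyn, at 0.0897, 0.0948 and 0.0990, against a median of 0.556 over all genes compared. Their means went from 24.0 to 46.2, from 31.2 to 57.9 and from 3.14 to 6.69 FPKM between WT and LRP1 KO. For Tpm2 they were Mgmt, Zdhhc16 and Micalcl, at 0.0373, 0.0408 and 0.0430, against a median of 0.183. For Rgs5 they were Arxes2, Irak1bp1 and Meis1, at 0.0974, 0.102 and 0.108, against a median of 0.284. Tpm2 and Rgs5 varied less over the libraries than Acta2 (root mean square 0.118, 0.252 and 0.541), so the distances of the 3 genes are on unlike scales. Likeness over 8 libraries is a description only.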

How the data were processed

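RNA sequencing values of 8 libraries (4 WT, 4 LRP1 KO, grouped and numbered by their titles) were analysed. The deposited values are not whole numbers. Their unit was taken to be FPKM, since the submitters' processing notes name TopHat2 and Cufflinks with mm10, while the study's methods name STAR and featureCounts, so how the authors made this table is uncertain. The 8 columns have the same highest value (7793) and, among values of at least 1, the sorted values differed by a median of 0.574%, so the FPKM values were quantile normalized before deposit. This hides depth, so that counting error, which low values still carry, could not be computed, and spreads any broad shift over other genes. A count test, as in the study's methods, could not be used.

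Genes with at least 1 FPKM in at least 4 libraries (11389 of 22520) were fitted on log2(FPKM + 1) with limma 3.58.1 (R 4.3.3, group as the only term, prior variance following the mean), with Benjamini-Hochberg adjustment over all of them and a threshold of 0.05. All fold changes are on this scale, which understates low genes. Single values were compared with exact two-sided permutation tests over 70 splits (Python 3.11.15, scipy 1.17.1). Alternatives were other pseudocounts, filters, scaling, variance priors, library weights, a replicate block and leaving out each library.

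Positions are from GENCODE M21 (GRCm38, of which mm10 is the UCSC name), promoters from RefSeq. Of 202 list entries 201 were matched, 1 by Ensembl identifier (Adgre1) and 4 by an older symbol; Acta1 was not analysed here. Stretches of 50 bases of the longest transcript occurred in other genes for 0.352% of Acta2, 0.400% of Myh11, 5.81% of Des (an antisense gene) and 48.3% of Tagln, and for 0 in the other members. The members and the 12 other lists (1 of which is not reported here), written from general knowledge, and the tests were chosen with earlier results of these data known. The family shares and member ratios were chosen after values were seen. Genes named are Lrp1, the 10 members, in each list up to 3 called genes per direction with the largest change and fixed defining markers, and the 3 nearest profiles of Acta2, Tpm2 and Rgs5. Genes outside this rule (Pdlim7, Kcnj8, Abcc9, Vtn, Higd1b, Myh7, Ryr2, Ttn, Lrat, Reln, Alb, Sftpc, Adgre1, Mrc1, Cd14 and Csf1r) were chosen after their values were seen.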

Additional observations from a re-analysis of the deposited data

Results flagged for a closer look

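In 36 groups of 4 libraries (the 10 members, Lrp1 and 7 family shares in WT and in LRP1 KO), 2 held a library far from the rest, where chance flags about 1 in 20 groups. Myh11 in WT library 3 was 3.10 FPKM, and the other WT libraries lay at 1.55 to 1.77 FPKM, a gap of 0.861 of the group's range and above the critical value. Without that library the estimate for Myh11 was 1.06 and did not pass (limma adjusted p 0.0522, where the alternatives gave 0.00178 to 0.144). The share of Cnn1 among calponins was 1.01% in WT library 4 and 1.45% to 1.53% in the other 3, a gap of 0.842 of the range. WT library 4 also held the lowest Cnn1 value of the group, at 2.58 FPKM.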

How the results depend on the processing

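The calls of Acta2, Tagln, Cnn1 and Des held under all 16 alternatives, and the direction of the 9 tested members held in all 142 comparisons that could be made, of which 9 lost and 3 gained the threshold. Members called ranged from 4 to 7 when 1 library was left out and were 6 in 6 of the 8 other settings, with 7 under library weights and under the block, where Myh11 passed. Genes called in all, 1547 in the main fit, numbered 433 to 2959 without 1 library, the highest without LRP1 KO library 4, and 3003 with library weights (1417 higher, 1586 lower). Higher calls ranged from 223 to 1387 and lower calls from 210 to 1572 when 1 library was left out. The cause was not tested. Same-numbered WT and LRP1 KO libraries deviated together with correlations of 0.158, 0.141, 0.340 and -0.312, where differently numbered ones had -0.404 to 0.377. The same-numbered WT library had the highest correlation for LRP1 KO libraries 1, 2 and 3 and the lowest for library 4. Whether the replicate numbers pair the libraries cannot be decided from so few values. With the replicate block 1013 genes were called, 520 of them lower, and Myh11 passed at 0.91 (limma adjusted p 0.0399, where its alternatives gave 0.00178 to 0.144). Rgs5 differed by -0.22 to 0.0451 without 1 library, the positive value without LRP1 KO library 1 (exact permutation p = 0.857, where its alternatives gave 0.229 to 1), so its direction is not fixed. The block and the model alternatives could not be applied to Rgs5, which was compared outside the fit. Of 176 counts of calls in other lists, 63 moved by more than 1.5 times or changed to or from 0. Leaving out 1 library also lowers the number of libraries that can pass the filter, so 2 macrophage genes (Adgre1 and Mrc1) were not tested without an LRP1 KO library. Depth is unknown and sets no limit that can be given.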

Other observations

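The RGS family, to which Rgs5 belongs, was described by 13 other genes, of which 6 were tested and 2 rose. Rgs1, a member known from leukocytes, went from 0.702 ± 0.498 to 4.22 ± 0.860 FPKM (SD, n = 4 per group), or by 1.65 (SE 0.20, limma adjusted p 0.00214). Rgs16 went from 5.28 ± 0.582 to 8.82 ± 1.77 FPKM, or by 0.63 (limma adjusted p 0.0147). Both passed in all 8 fits that left out 1 library, without overlap of the groups, and the list gave 3 calls without LRP1 KO library 4.

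Hepatic stellate cells are a desmin-positive pericyte of the liver, one of the organs of origin. Of 10 stellate genes 3 were tested and 1 rose (Hand2, from 5.32 ± 0.483 to 12.1 ± 3.70 FPKM, limma adjusted p 0.0112), while Lrat and Reln had means of 0.389 FPKM or less. Of 12 hepatocyte and epithelial genes 3 were tested and 1 fell (Scgb1a1, from 2.89 ± 0.712 to 1.13 ± 0.125 FPKM, limma adjusted p 0.00770), and Alb and Sftpc had means of 0.149 FPKM or less. The 12 genes together summed to 88.2 to 170 FPKM in WT and 95.2 to 113 FPKM in LRP1 KO, so Alb and Sftpc do not stand for the list.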
